A study of Mus musculus with 18 samples.

Results

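The genes of the cytosolic ribosomal proteins were followed in lung mRNA of mice, as 83 of the 13384 genes in the deposited expression table. They were chosen by gene name, as the symbols that begin with Rps or Rpl and a digit, together with Rplp0, Rplp1, Rplp2 and Rpsa. The 9 rows of the S6 kinases, which share the Rps prefix, and 6 rows named as pseudogenes were left out. The rule used no measured value. It took in all 31 listed proteins of the small (40S) subunit, all 43 of the large (60S) subunit, the 3 proteins of the stalk (P) complex, 5 paralogues of ribosomal proteins and Rps19bp1, which encodes a binding partner of Rps19 and no ribosomal protein. Fau and Rack1 also encode ribosomal proteins and fall outside the rule, so their values are given beside those of the 83.

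The 9 mRNA libraries came from whole lung in 3 groups of 3. Control mice received phosphate-buffered saline (PBS). The model of chronic obstructive pulmonary disease (COPD) combined exposure to cigarette smoke with cigarette smoke extract given into the peritoneum, and these mice also received PBS. The third group had the same smoke model and an injection of 4000000 BMSCs, which the series title calls mesenchymal stem cells, in 100 µl of PBS by the tail vein. Strain, sex and age, the source of the cells, the times of sampling and whether each library is a single mouse are not stated in the labels, so the p-values measure the spread between these libraries. Values are FPKM, fragments scaled to transcript length and to the mapped total of the library, so levels of different genes can be compared per length. Reads can be split between near-identical copies, which limits such comparisons in this family. Rpl10-ps3, a pseudogene row left out, was at 17.5 to 96.1 FPKM beside 65.2 to 192 FPKM for Rpl10.

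Ribosomes are made of ribosomal RNA and a set of proteins, nearly all in a single copy. The small subunit binds mRNA and reads the code, the large subunit joins amino acids, and the stalk proteins recruit the factors that drive elongation. Ribosomal protein mRNAs are short and abundant in growing cells, and many start with a run of C and T, the terminal oligopyrimidine (TOP) tract, through which their translation follows mTOR signalling. Several ribosomal proteins also act off the ribosome, and Rpl5 and Rpl11 bind Mdm2 when ribosome assembly is disturbed.

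Many genes of the family carry the TOP tract, so the bases around the start site are shown for genes that the results turn on. Promoters were taken from RefSeq (GRCm38.p6), which held 63 of the 83 genes in a window from 250 bases before to 50 bases after the start. Each line runs 5′ to 3′ from 10 bases before the start through the first 20 transcribed bases, and capitals mark a C followed by at least 4 C or T with the first C within 5 bases of the start. Rps27 (chr3:90213629-90213658, minus strand) and its retrogene Rps27rt (chr9:114982720-114982749, minus strand) are given as a parent and its copy. Rpl31 (chr1:39367841-39367870, plus strand), Rpl18 (chr7:45718061-45718090, plus strand) and Rps6 (chr4:86857348-86857377, minus strand) carry the tract. Rps25 (chr9:44407704-44407733, plus strand), Rpl37a (chr1:72711250-72711279, plus strand) and Rpl10a (chr17:28328461-28328490, plus strand) had no match by this rule.
Rps27: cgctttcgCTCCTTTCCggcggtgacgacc
Rps27rt: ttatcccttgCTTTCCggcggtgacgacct
Rpl31: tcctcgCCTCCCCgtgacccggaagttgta
Rpl18: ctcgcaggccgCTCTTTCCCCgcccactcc
Rps6: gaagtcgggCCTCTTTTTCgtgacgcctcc
Rps25: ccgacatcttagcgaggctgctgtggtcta
Rpl37a: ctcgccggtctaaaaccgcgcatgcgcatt
Rpl10a: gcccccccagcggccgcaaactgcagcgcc

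Such a tract was found at 30 of the 63 starts (47.6%), against 23.5% of the 10333 genes of the expression table with a promoter and 21.2% of all 27025 genes with one. In the translation factors and other genes listed as known for a TOP tract it was found in 7 of 16 (43.8%), close to the ribosomal share. In the mitochondrial ribosomal protein genes it was found in 17 of 69 (24.6%), and in nuclear genes of the respiratory chain in 21 of 76 (27.6%). The tract was read on the strand of the gene, motifs of fixed letters on both strands of the whole window, and a gene with several starts counted where any of them matched. CCGGAA was in 35 of 63 promoters (55.6%), against 29.8% of table genes and 16.7% of all genes. GGGCGG, with 63.5% against 66.7%, and TATAAA, with 11.1% against 9.26%, were near the level of the other table genes. The 80 bases upstream of Rps25 (chr9:44407634-44407713, plus strand), Rps3a1 (chr3:86142669-86142748, minus strand) and Rps10 (chr17:27635245-27635324, minus strand) are shown with CCGGAA in capitals as examples of the second motif.
Rps25: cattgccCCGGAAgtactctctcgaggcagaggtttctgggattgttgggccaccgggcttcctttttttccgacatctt
Rps3a1: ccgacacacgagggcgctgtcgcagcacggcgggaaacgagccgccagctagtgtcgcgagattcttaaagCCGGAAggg
Rps10: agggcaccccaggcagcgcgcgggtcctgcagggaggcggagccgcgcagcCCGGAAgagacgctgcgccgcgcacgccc

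The genes are compact and dispersed. RefSeq placed the 83 genes on 19 chromosomes, with 14 on chromosome 7 and 4 on the X chromosome, and their median span was 3175 bases against 22965 bases for 12942 genes of the table.

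The libraries differed widely in what else they held, which bears on every comparison below. Transcripts of the mitochondrial genome took 23.9% to 92.2% of the summed FPKM, and Scgb1a1, the club cell secretory protein, took 1.02% to 19.0% in control, 33.0% to 39.2% in the COPD model and 1.32% to 6.27% in the BMSC-treated libraries. Control 1 and BMSC-treated 1 stood apart, with 89.3% and 92.2% mitochondrial FPKM and 1038 and 1193 genes at 0, against 107 to 201 genes at 0 in the other libraries. All 10 lung marker genes checked, among them Sftpc and Ager, were detected in all 9 libraries. Ribosomal values are therefore given as deposited, then rescaled so that each library has the same sum over genes other than Scgb1a1 and those of the mitochondrial genome, and then as a share of the summed FPKM of the 77 genes of the subunits and stalk, called subunit genes below. The medians of the 83 genes and the rescaled changes of Rpl31, Rpl29, Rps25, Rpl37a, Rpl10a and Rpl18 are given with and without control 1 and BMSC-treated 1. Changes of the subunits, landmark genes, paralogues and other lists are given over all 9 libraries only, so control 1 and BMSC-treated 1 weigh on them. In bulk lung, fewer cells of a type and less RNA per cell cannot be told apart.

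All 83 genes reached 1 FPKM in every library, and all passed the filter on low values. Their median level, as a mean over the libraries, was 162 FPKM against 3.12 FPKM over all genes of the table. A mean above 100 FPKM was reached by 63 of the 83, and 32 of them were among the 100 highest genes of the table. The highest single value was 1563 FPKM, for Rplp1 in COPD 1.

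**Figure D1:**
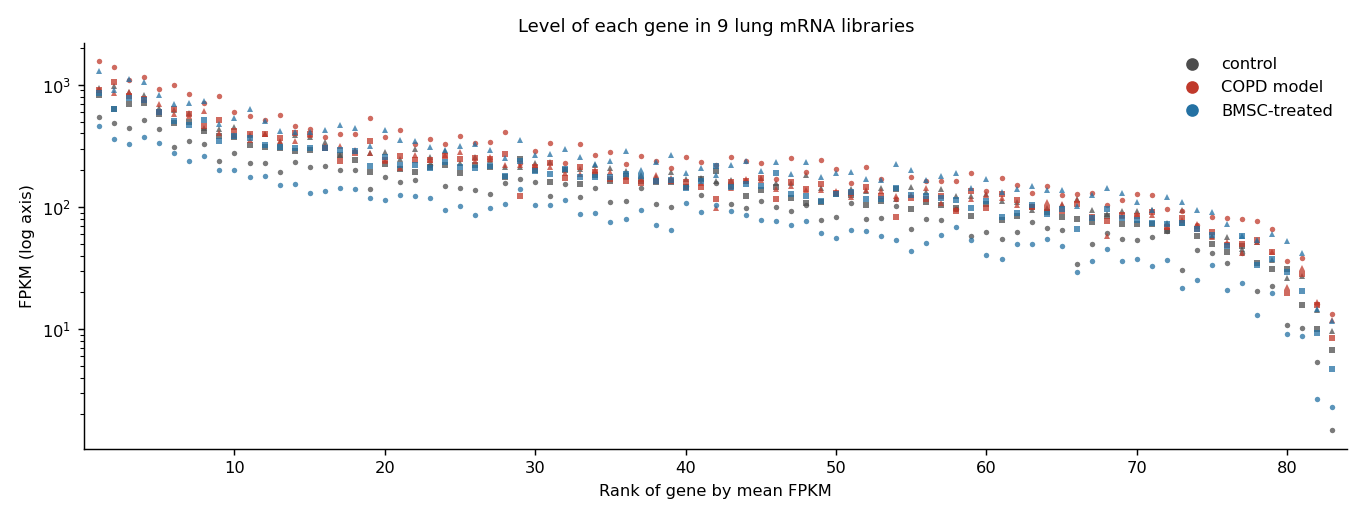
FPKM on a log axis of each of the 83 genes (ordered by rank of mean level) in the 9 libraries, with colours for the 3 groups and a point for each library. Rplp1 leads with a mean of 924 FPKM and Rps19bp1 is lowest with 7.78 FPKM, and most genes lie near the median of 162 FPKM.

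Rplp1, an acidic protein of the stalk, was at 545.4, 825.6 and 941.7 FPKM in control, 1563, 905.0 and 911.3 FPKM in the COPD model and 460.7, 864.4 and 1299 FPKM in the BMSC-treated libraries. Its stalk partner Rplp2 was lower throughout, at 78.1 to 142.4, 137.4 to 242.5 and 61.6 to 174.3 FPKM in the same order. Rplp0, the stalk base and a common reference gene for PCR, was at 217.0, 304.0 and 340.4 FPKM in control, 375.2, 305.5 and 318.5 FPKM in the COPD model and 135.7, 304.0 and 427.0 FPKM after BMSC. Its groups overlapped, and its spread between the BMSC-treated libraries was wider than the distance between any group means.

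Among subunit proteins, Rps3a1, which lies where mRNA leaves the small subunit, had the highest mean of its subunit at 811 FPKM. Rpl17, which lines the exit tunnel, led the large subunit at 781 FPKM. The lowest means among subunit genes were those of Rps15a at 39.9 FPKM and Rpl18 at 43.4 FPKM, and Rplp1 exceeded Rps15a 23.1-fold per length.

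The order of the groups in summed level differed by scale. As deposited, the 83 genes summed to 11625, 15913 and 19169 FPKM in control, 26856, 18464 and 18396 FPKM in the COPD model and 8474, 16860 and 24434 FPKM in the BMSC-treated libraries. Control 1 and BMSC-treated 1 were the lowest and COPD 1 the highest, and the groups overlapped. As a share of FPKM outside Scgb1a1 and mitochondrial transcripts, the same genes made up 18.6%, 11.3% and 10.8% in control, 13.8%, 9.66% and 8.84% in the COPD model and 19.2%, 13.0% and 13.0% after BMSC. On this scale the libraries with the most mitochondrial RNA, control 1 and BMSC-treated 1, became the highest. The sum used for rescaling thus includes the ribosomal genes themselves.

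**Figure D2:**
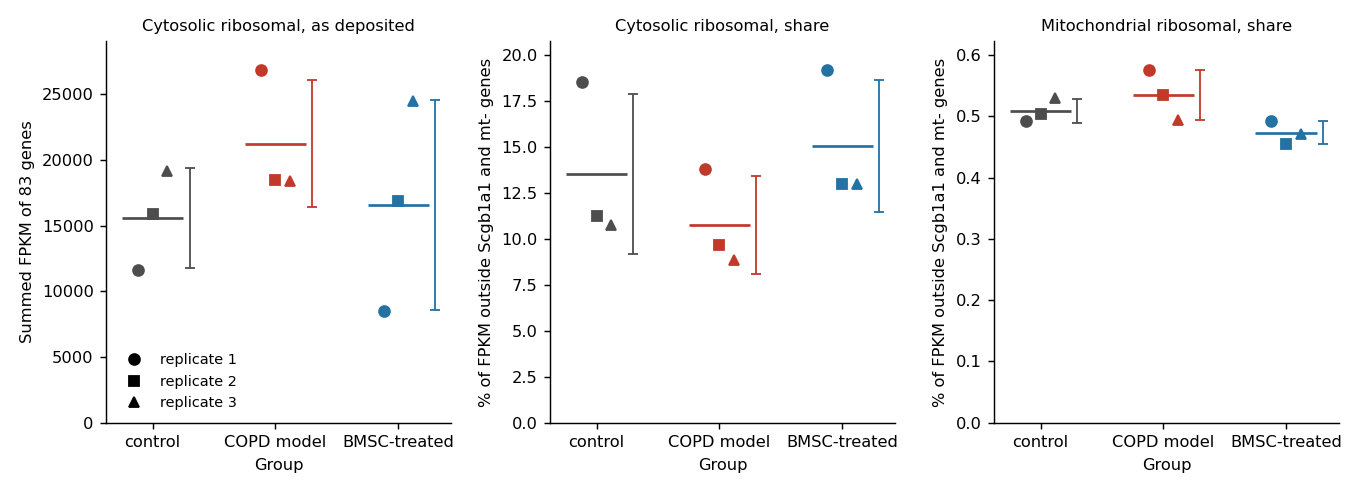
Per library (points, shapes for replicates), with the group mean as a line and a bar of 1 SD over 3 libraries: summed FPKM of the 83 genes, their share of FPKM outside Scgb1a1 and mitochondrial transcripts, and the same share for the mitochondrial ribosomal protein genes. Control 1 and BMSC-treated 1 are the lowest points in the left panel and the highest in the middle panel, at 18.6% and 19.2%, and lie within 0.455% to 0.576% with the rest in the right panel.

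In the COPD 2 and COPD 3 libraries the share of 9.66% and 8.84% lay below each control library, while COPD 1 at 13.8% lay above control 2 and control 3. BMSC-treated 2 and BMSC-treated 3 were at 13.0%, which was above COPD 2 and COPD 3 and below COPD 1. Genes of the mitochondrial ribosome, which translates only mitochondrial mRNAs, made up 0.455% to 0.576% on this scale with no high value in control 1 (0.493%) or BMSC-treated 1 (0.492%). Nuclear-encoded respiratory chain subunits made up 2.18% to 2.80%. Rack1, a signalling scaffold on the small subunit, was at 28.6 to 54.4, 51.1 to 70.7 and 21.5 to 76.3 FPKM as deposited in the 3 groups, and Fau, a ubiquitin-like fusion that releases the small subunit protein S30, at 325.8 to 537.2, 477.7 to 827.6 and 236.9 to 563.8 FPKM.

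The first comparison asked what the smoke model did. As deposited, 80 of the 83 genes had a higher mean log2 level in the COPD model than in control, where 94.4% of the 11765 tested genes did. Their median change was 0.43 on the log2(FPKM + 1) scale against 0.66 over all tested genes. No ribosomal protein gene passed limma's moderated test at a Benjamini-Hochberg adjusted p under 0.05, where 0.0765% of tested genes did. The lowest adjusted p among them was 0.514. Before adjustment 0 of 83 were under 0.05, against 6.36% of tested genes with higher and 0.229% with lower values. In 14 of the 83 all COPD libraries lay above all control libraries, against 23.7% of tested genes, and in 0 of 83 they lay below, against 0.314%. Without control 1 and BMSC-treated 1 the median change was 0.24 against 0.30, with 75 of the 83 above 0.

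After rescaling, the genes lay on the other side of 0. The median log2 change was -0.33 against 0.14 over all tested genes, and 7 of the 83 were above 0 against 64.7% of tested genes. Again 0 of 83 passed the test, as did 0.0% of tested genes, and the lowest adjusted p was 0.754. An unadjusted p under 0.05 was reached by 5 of 83 with lower values, among them Rpl29, Rpl31 and Rps25, against 1.72% of tested genes, and by 0 with higher values, against 2.76%. All COPD libraries lay below all control libraries in 7 of 83, against 3.9% of tested genes, and above in 0, against 7.09%. Without control 1 and BMSC-treated 1 the median was -0.08 against 0.05 over all genes. There 23 of the 83 were above 0, against 58.0% of tested genes, and 1 was under an unadjusted p of 0.05 in either direction, against 4.45%.

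The subunits had similar medians in this comparison. The median rescaled log2 change was -0.36 for the 31 small subunit genes, -0.33 for the 43 large subunit genes and -0.23 for the 3 stalk genes. The small subunit held 39.8% to 41.3% of the summed FPKM of the 77 subunit genes in the 9 libraries.

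The second comparison asked what BMSC treatment of the model changed, and it shares the COPD libraries with the first. As deposited, 77 of the 83 genes were lower in the BMSC-treated than in the COPD libraries, with a median log2 change of -0.44 against -0.75 over all tested genes, of which 5.93% were higher. Again 0 of 83 passed limma's test, where 0.127% of tested genes did, with a lowest adjusted p of 0.378. Before adjustment 0 were under 0.05, against 10.8% of tested genes with lower and 0.306% with higher values. Rpl36al and Rpl7l1 were the 2 genes whose BMSC-treated libraries all lay below the COPD libraries, against 31.0% of tested genes. The reverse was found for 0 of 83, against 0.272%. The median as deposited rested on BMSC-treated 1. Without that library it was -0.02 against -0.31 over all tested genes, with 38 of the 83 above 0, and the members' values were the same when control 1 was left out too.

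Rescaled, 79 of the 83 genes had a higher mean log2 level after BMSC, against 34.9% of tested genes, with a median log2 change of 0.51 against -0.16. None of the 83 passed the test (0.0% of tested genes did), and the lowest adjusted p was 0.622. An unadjusted p under 0.05 with a higher value was found for 16 of 83, against 3.31% of tested genes, and with a lower value for 0, against 4.49%. In 30 of 83, among them 12 small subunit and 15 large subunit genes, all BMSC-treated libraries lay above all COPD libraries, against 6.25% of tested genes. Without control 1 and BMSC-treated 1 the median was 0.32 against -0.05. There 74 of the 83 were above 0, against 43.2% of tested genes, and 22 were under an unadjusted p of 0.05 in either direction, against 10.9%.

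Over all 9 libraries, BMSC-treated against control gave the smallest median changes. Without control 1 and BMSC-treated 1 this did not hold. The median nearest 0 was then -0.02 as deposited, for BMSC-treated against COPD, and -0.08 rescaled, for the COPD model against control. As deposited, 41 of the 83 were higher, against 32.5% of tested genes, and the median log2 change was -0.01 against -0.10. Rescaled, 77 were higher against 48.6% of tested genes, with a median of 0.18 against -0.01. With an adjusted p of at least 0.999 on both scales, 0 of 83 passed the test (0.0% of tested genes on each scale), and 0 were under 0.05 before adjustment. At that level stood 0.28% of tested genes with higher and 0.127% with lower values as deposited, and 1.57% and 0.858% after rescaling. As deposited, 0 of the 83 had groups that did not overlap, against 0.178% of tested genes higher and 0.382% lower. After rescaling, 0 of the 83 had groups that did not overlap, against 2.84% of tested genes higher and 2.69% lower. Without control 1 and BMSC-treated 1 the medians were 0.21 against -0.02 as deposited and 0.23 against -0.00 rescaled, with 79 of the 83 above 0 on each scale. Leaving out BMSC-treated 1 alone brought the rescaled median to -0.00, and leaving out control 1 alone brought it to 0.43.

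**Figure D3:**
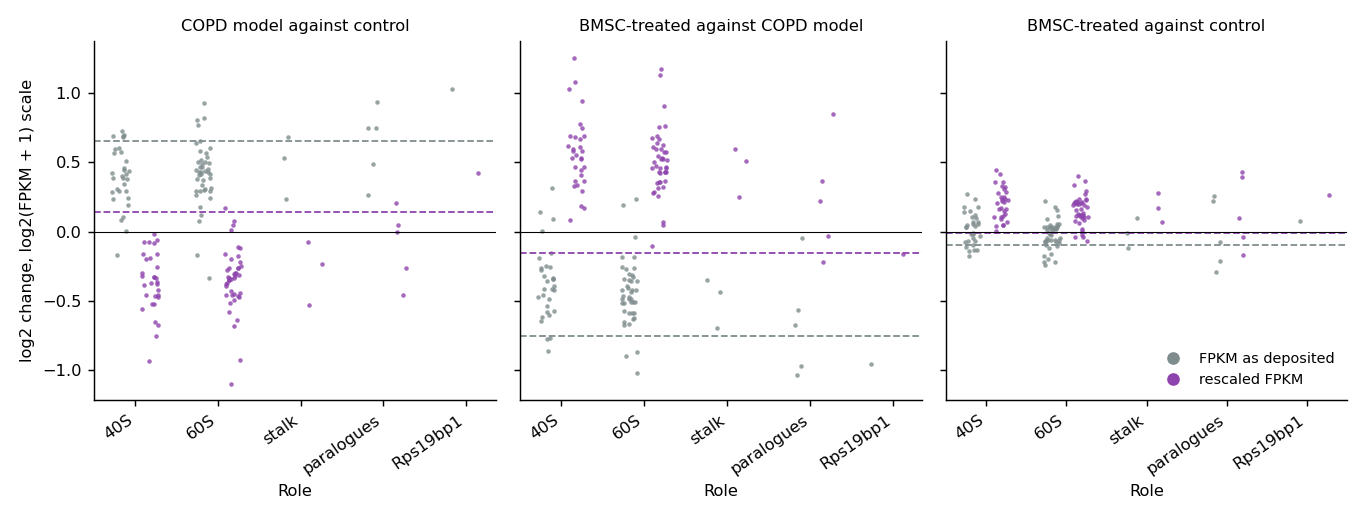
Log2 change of each of the 83 genes on the log2(FPKM + 1) scale, by role and for the 3 comparisons, as deposited (grey) and rescaled (purple), with dashed lines at the median of all tested genes on each scale. In the COPD model against control most grey points lie above 0 and below the grey line, and most purple points lie below 0, with medians of 0.43 and -0.33.

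Markers of other cells that lung samples can hold also differed between libraries. Summed rescaled FPKM of the lymphocyte markers in the table (14 of 16 listed) was 26.8 to 45.6 in control, 18.1 to 40.8 in the COPD model and 36.9 to 133 after BMSC. For neutrophil markers (9 of 11) it was 127 to 2051, 101 to 212 and 228 to 606, and for erythroid markers (5 of 8) 854 to 4767, 284 to 911 and 693 to 5818. Ciliated cell markers (11 of 11) were at 82.9 to 731, 479 to 727 and 173 to 541. No marker in the table was at 0 in all libraries of a group. The part of these cells in the ribosomal values was not tested.

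Rpl31, Rpl29 and Rps25 were among the 4 subunit genes with the lowest rescaled changes in the COPD model against control, and among the 4 with the highest in the BMSC-treated against the COPD libraries. These comparisons share the COPD libraries, so low values there give both.

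Rpl31, near the exit of the peptide tunnel, was at 241, 148 and 96.8 rescaled FPKM in control, 88.3, 63.9 and 87.3 in the COPD model and 182, 163 and 178 after BMSC. Its COPD libraries were the lowest of the 9. The log2 changes were -0.93 ± 0.32 and 1.13 ± 0.32 (SE), with limma adjusted p of 0.754 and 0.622, and -0.59 and 1.10 without control 1 and BMSC-treated 1.

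Rpl29, a small basic protein of the large subunit that was also described as a heparin-binding protein, was at 375, 207 and 137 rescaled FPKM in control, 167, 91.1 and 70.1 in the COPD model and 348, 250 and 144 after BMSC. COPD 1 at 167 overlapped with control 3 and BMSC-treated 3. Its log2 changes were -1.10 ± 0.47 and 1.18 ± 0.47 (SE), the widest errors of the 3 genes, and -0.71 and 0.89 without control 1 and BMSC-treated 1.

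Rps25, which some viral and cellular internal ribosome entry sites need, was at 145, 89.5 and 72.9 rescaled FPKM in control, 78.9, 59.4 and 41.5 in the COPD model and 152, 110 and 113 after BMSC. COPD 1 lay just above control 3, and all COPD libraries lay below all BMSC-treated ones. The log2 changes were -0.75 ± 0.33 and 1.08 ± 0.33 (SE), with limma adjusted p of 0.754 and 0.622, and -0.47 and 0.93 without control 1 and BMSC-treated 1.

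At the other end, Rpl37a, Rpl10a and Rpl18 had changes near 0. Rpl37a, a zinc-binding protein of the large subunit, was at 335, 202 and 230 rescaled FPKM in control, 412, 270 and 199 in the COPD model and 398, 247 and 247 after BMSC. Its log2 change was 0.17 ± 0.34 (SE) in the COPD model against control and 0.05 ± 0.34 in BMSC-treated against COPD. Rpl10a, the protein of the L1 stalk where spent tRNA leaves, changed by 0.05 ± 0.26 and 0.07 ± 0.26 on the same scale, with limma adjusted p of 0.953 and 0.926. Rpl18 changed by 0.08 ± 0.23 and -0.10 ± 0.23, and was the 1 subunit gene below 0 in BMSC-treated against COPD. Without control 1 and BMSC-treated 1 the changes were 0.38 and -0.18 for Rpl37a, 0.24 and -0.04 for Rpl10a, and 0.17 and -0.14 for Rpl18. The groups of each of these 3 genes overlapped on the rescaled scale.

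In BMSC-treated against control libraries, the 4 highest subunit genes on the rescaled scale were Rps15a, with a log2 change of 0.45, Rps29 with 0.41, Rpl39 with 0.40 and Rpl36 with 0.36. Rpl22, Rpl26, Rpl21 and Rpl18 were the lowest, and the lowest value was -0.07 for Rpl22. None of these 8 had groups that did not overlap.

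A landmark set of proteins with named functions gave values between these ends. Rps6, the phosphorylation target of the S6 kinases, was at 232.3, 288.1 and 387.1 FPKM as deposited in control, 459.7, 403.7 and 348.1 FPKM in the COPD model and 154.1, 306.3 and 407.7 FPKM after BMSC. Its rescaled log2 change was -0.33 ± 0.31 (SE) in the COPD model against control and 0.37 ± 0.31 in BMSC-treated against COPD. Rpsa, also known as a laminin receptor, changed by -0.30 and 0.47. Rps19, mutated in Diamond-Blackfan anaemia, changed by -0.34 and 0.44. Rpl5 and Rpl11, the pair that binds Mdm2 together with 5S RNA, changed by -0.35 and -0.22 in the COPD model against control and by 0.48 and 0.43 in BMSC-treated against COPD. Rps3, at the mRNA entry channel, changed by -0.37 and 0.58, and Rps27a, which is made as a fusion with ubiquitin, by -0.47 and 0.68. Rpl13a, also part of an interferon-responsive complex that represses translation, changed by -0.39 and 0.63, and Rpl41, the smallest ribosomal protein, by -0.16 and 0.32. All had limma adjusted p of at least 0.622, and none stood apart from the median of the ribosomal genes by more than its SE.

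Within the ribosomal protein genes themselves, the order of levels was kept. The Spearman rank correlation of the 77 subunit genes was 0.92 to 0.99 over the 36 pairs of libraries, which is a description across genes of 1 tissue and 1 annotation. As a share of the summed subunit FPKM, the median SD over the 9 libraries was 0.14 on the log2 scale, and 58 of 77 genes were under 0.2. The steadiest was Rps15, of the small subunit's decoding head, with 0.04, followed by Rpl34 and Rps23 with 0.05 and 0.06. Among the most variable were Rpl29 with 0.49, Rpl31 with 0.42, Rpl18 with 0.33 and Rps25 with 0.30.

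The sum under this share holds no mitochondrial or Scgb1a1 transcripts, though the share of a gene can still vary with the make-up of the library. On this scale the COPD libraries lay above all control libraries in 8 of 83 genes and below in 13, against 4.63% and 1.06% of tested genes. The background is over genes that are not part of the sum, whose median moved by 0.36, so the ribosomal genes are read against their own median of -0.02. BMSC-treated libraries lay above all COPD libraries in 11 and below in 13 of 83, against 1.21% and 19.8%. Against control they lay above in 5 and below in 4, against 0.858% and 2.93%. None of the 83 passed limma's test on this scale in any comparison, where 0.0% of tested genes did. With the replicate number as a block, 1 of the 83, Rpl29, passed in BMSC-treated against COPD with a limma adjusted p of 0.0497, where 14.1% of tested genes did. These groups share the numbers without pairing.

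Rps25 held 0.531%, 0.541% and 0.463% of the subunit FPKM in control, 0.389%, 0.420% and 0.321% in the COPD model and 0.537%, 0.577% and 0.591% after BMSC. Its COPD libraries lay below all 6 others. The log2 change of the share was -0.44 ± 0.30 (SE) in the COPD model against control and 0.59 ± 0.30 in BMSC-treated against COPD, with limma adjusted p of 0.721 and 0.441.

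Rpl29 held 1.37%, 1.25% and 0.866% in control, 0.824%, 0.644% and 0.542% in the COPD model and 1.23%, 1.31% and 0.756% after BMSC. The COPD libraries lay below all control libraries, by a small margin for COPD 1. They overlapped with the BMSC-treated libraries, as COPD 1 at 0.824% lay above BMSC-treated 3 at 0.756%.

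Rpl37a had the opposite pattern, with 1.23%, 1.22% and 1.46% in control, 2.03%, 1.91% and 1.53% in the COPD model and 1.41%, 1.30% and 1.30% after BMSC. All 3 COPD libraries lay above all others. Rpl10a held 0.476% to 0.591% in control, 0.648% to 0.701% in the COPD model and 0.443% to 0.553% after BMSC, again without overlap. Rpl18 held 0.178%, 0.222% and 0.274% in control, 0.291%, 0.293% and 0.287% in the COPD model and 0.157%, 0.202% and 0.224% after BMSC. Its COPD libraries were nearly equal and lay above all others. The log2 changes of these 3 shares in the COPD model against control were 0.48 ± 0.28, 0.36 ± 0.30 and 0.38 ± 0.33 (SE), with limma adjusted p of 0.721 for each. Without control 1 and BMSC-treated 1 they were 0.44, 0.30 and 0.23. Within control and within BMSC-treated libraries, the shares of Rpl10a and Rpl18 rose from replicate 1 to replicate 3. Mitochondrial FPKM fell in the same order, from 89.3% to 46.9% in control and from 92.2% to 55.6% after BMSC. It was lowest in the COPD libraries, at 23.9% to 30.0%, and its part in these shares was not tested. The share of Rpl29 fell from replicate 1 to replicate 3 in control and in the COPD model, and was lowest in replicate 3 after BMSC. Those of Rpl31 and Rps25 were lowest in control 3 among control libraries, but rose from replicate 1 to replicate 3 after BMSC. The part of mitochondrial FPKM in the shares of these genes was not tested either.

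**Figure D4:**
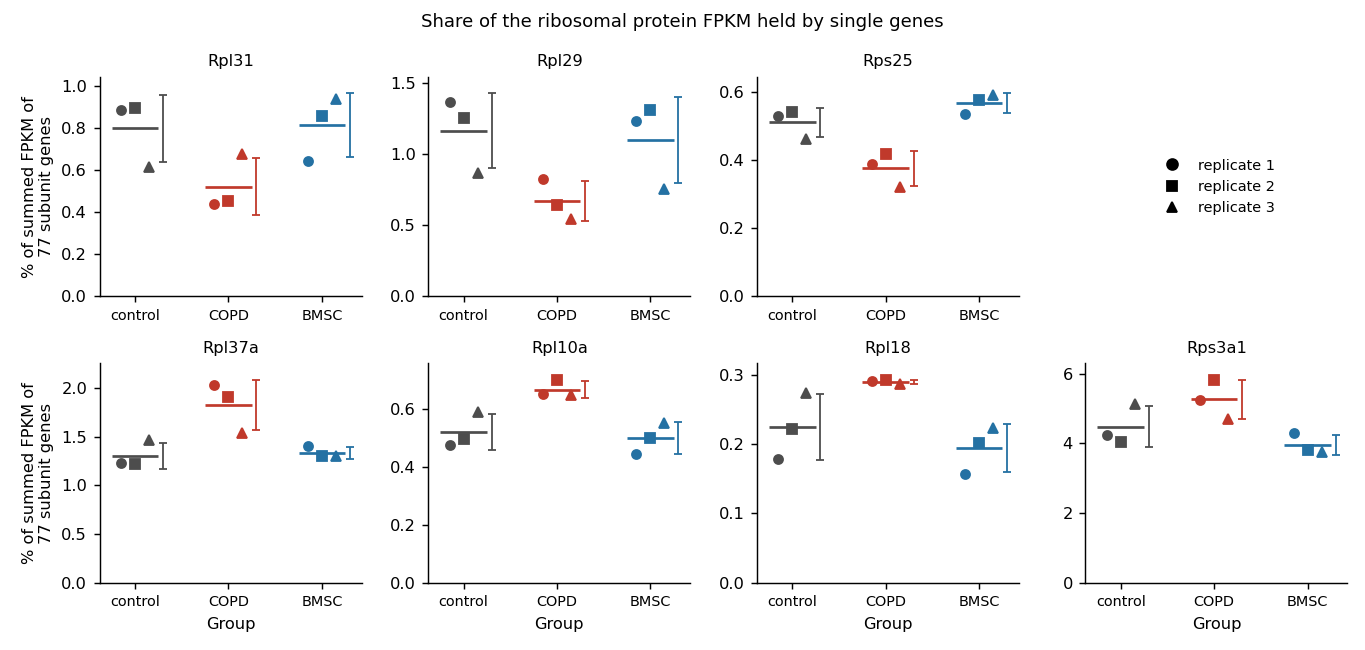
Share of the summed FPKM of 77 subunit genes held by 7 genes in each library (points, shapes for replicates), with the group mean as a line and a bar of 1 SD over 3 libraries. In the upper row the COPD means are the lowest, as for Rps25 with libraries at 0.321% to 0.420%, and in the lower row they are the highest, as for Rpl18 with libraries at 0.287% to 0.293%.

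Of the subunit genes with a promoter, 27 matched the rule for the start-site tract and 30 did not. Their median log2 changes of the share were -0.02 and -0.03 in the COPD model against control, and -0.01 and 0.00 in BMSC-treated against COPD. By this rule both ends of the ranking held genes of each kind. Rpl31 and Rpl18 matched it, and Rps25, Rpl37a and Rpl10a did not, as in the sequences above. The rule depends on the annotated start. The upstream bases shown for Rps25 hold a run of C and T just outside the window, so genes without a match can still carry a tract. Whether they do was not tested.

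The 5 paralogues in the table were all expressed below their parent genes. Rpl3l, Rpl10l, Rpl39l, Rps4l, Rps3a2 and Rps3a3 had no row under these names in the expression table, so they were not analysed here. Rpl36al, a near-identical copy of Rpl36a, was at 59.3%, 94.8% and 93.6% of its parent's FPKM in control, 66.7%, 79.0% and 97.3% in the COPD model and 54.6%, 68.0% and 70.6% after BMSC. Replicate 1 was the lowest of each group. Since reads can be split between such copies, this ratio is uncertain.

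Rpl22l1, which can take the place of Rpl22 in the ribosome, was at 18.0%, 21.8% and 29.1% of Rpl22 in control, 30.3%, 31.4% and 37.2% in the COPD model and 26.7%, 27.7% and 44.7% after BMSC. The COPD libraries lay above all control libraries, and the BMSC-treated libraries overlapped with both groups. The margin was small, with control 3 at 29.1% and COPD 1 at 30.3%. Within each group the ratio rose from replicate 1 to replicate 3. As deposited, Rpl22l1 was at 10.3, 15.8 and 27.3 FPKM in control and 37.9, 28.3 and 31.8 FPKM in the COPD model, a log2 change of 0.93 ± 0.77 (SE) with a limma adjusted p of 0.514. Rescaled, the change was 0.21 ± 0.23.

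Rps27l, a paralogue induced by p53, was at 17.2%, 32.4% and 33.4% of Rps27 in control, 25.1%, 33.2% and 33.3% in the COPD model and 19.1%, 28.8% and 25.6% after BMSC. Control 1 and BMSC-treated 1 were the lowest. Rps27rt, the retrogene whose start region is shown above, was at 6.15% to 13.8%, 8.12% to 9.77% and 7.96% to 12.4% of Rps27 in the same order. Its rescaled log2 change of 0.85 ± 0.28 (SE) in BMSC-treated against COPD was the highest of the paralogues, with a limma adjusted p of 0.622.

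Rpl7l1, which acts in assembly of the large subunit, was at 4.92%, 6.18% and 6.90% of Rpl7 in control, 5.65%, 9.46% and 8.58% in the COPD model and 3.51%, 5.34% and 6.11% after BMSC. It was the only gene of the 83 whose rescaled BMSC-treated libraries all lay below the COPD libraries, against 14.2% of tested genes, with a log2 change of -0.22 ± 0.19 (SE). Rps19bp1 had the other sign than the subunit medians, with rescaled log2 changes of 0.42 ± 0.32 in the COPD model against control and -0.16 ± 0.32 in BMSC-treated against COPD.

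**Figure D5:**
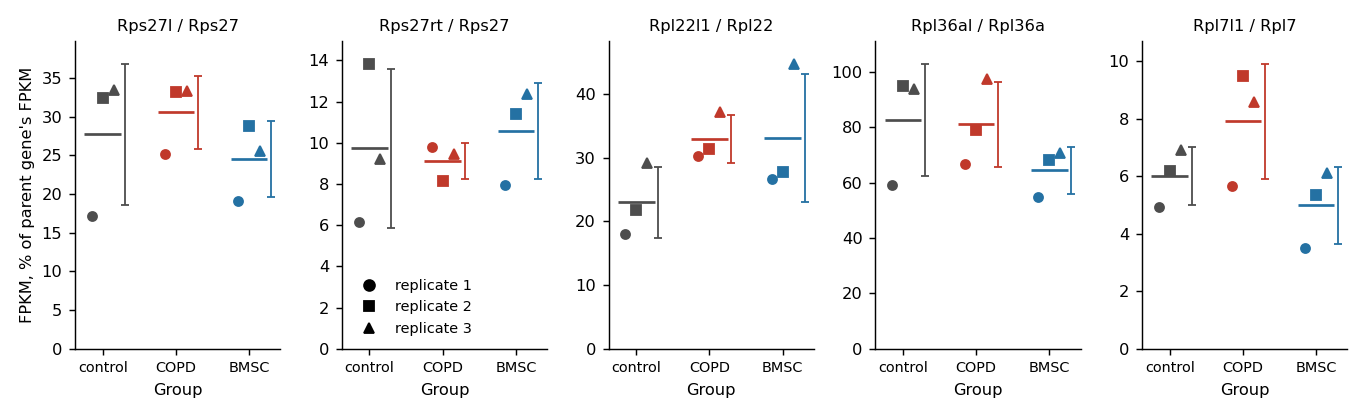
FPKM of each of the 5 paralogues as a percentage of the FPKM of its parent gene, per library (points, shapes for replicates), with the group mean as a line and a bar of 1 SD over 3 libraries. Rpl22l1 is at 18.0% to 29.1% of Rpl22 in control and 30.3% to 37.2% in the COPD model, and the other ratios overlap between these groups.

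Other genes of protein synthesis were set beside the 83. Among 20 translation factors and other genes with a known TOP tract, the median rescaled log2 change was -0.24 in the COPD model against control and 0.24 in BMSC-treated against COPD, with 16 below 0 in the first and 18 above 0 in the second. Eef1a1, which brings tRNA to the ribosome, was among the 2 lowest in the first and the highest in the second, with -0.52 ± 0.35 and 0.60 ± 0.35 (SE). Its mean rescaled FPKM was 1049 with an SD of 406 in control, 704 with an SD of 86.1 in the COPD model and 1097 with an SD of 359 after BMSC. Tpt1, encoding the translationally controlled tumour protein, was the lowest in the first and next to Eef1a1 in the second, with -0.53 ± 0.34 and 0.54 ± 0.34.

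Genes of ribosome biogenesis had medians near those of all tested genes. Of 39 tested, 31 were above 0 after rescaling in the COPD model against control, with a median log2 change of 0.16 against 0.14 over all tested genes. In BMSC-treated against COPD 7 were above 0, with a median of -0.23 against -0.16. At the lower end of the second comparison were Nop2, an rRNA methyltransferase, and Bop1, of the complex that processes large subunit rRNA. Their log2 changes were -0.97 ± 0.36 and -0.97 ± 0.34 (SE), both with a limma adjusted p of 0.622. Both were near 0 in BMSC-treated 1. As deposited, Nop2 was at 0.14, 1.56 and 4.16 FPKM after BMSC and 4.40 to 6.29 FPKM in the COPD model. Bop1 was at 0.16, 2.05 and 3.71 FPKM after BMSC and 5.54 to 5.93 FPKM in the COPD model. The 17 kinases and regulators of TOP mRNAs had medians of 0.04 and -0.14. Larp1, which binds the TOP tract, was among the highest in the first comparison with 0.46 ± 0.38 and the lowest in the second with -0.63 ± 0.38.

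The 78 mitochondrial ribosomal protein genes had median rescaled log2 changes of 0.07 in the first comparison, -0.17 in the second and -0.07 in the third. For the 93 respiratory chain genes these medians were 0.01, -0.01 and -0.00. In none of these lists did a gene pass limma's test in any of the 3 comparisons, as deposited or rescaled.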

How the data were processed

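Messenger RNA of lung was measured in 9 libraries, 3 each of control, COPD model and BMSC-treated mice. Poly(A) RNA was enriched from 1.5 µg of total RNA and a stranded kit was used, per the labels' protocols. The authors deposited FPKM per gene, per the file headers. The submitters' processing notes name FastQC, cutadapt, StringTie, Bowtie and mm10, and the use of strand in counting is not given in the sources used here. Depth is unknown, so no counting intervals are given. All value columns of the table could be assigned to samples.

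Genes with at least 1 FPKM in at least 3 libraries (11765 of 13384) were tested with limma 3.58.1 in R 4.3.3 on log2(FPKM + 1), a scale that understates changes of low genes, with the mean-variance trend and group as the only term over all 9 libraries. P-values were adjusted by Benjamini-Hochberg over all tested genes, and calls were made at an adjusted p under 0.05. The fit was checked on simulated data with less noise than these libraries and no shift shared by a whole library, so that check does not measure power here. Alternatives were other scalings, a pseudocount of 0.1, no filter, the replicate block and leaving out libraries.

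The members and gene lists were chosen with earlier results of these data known, and lists are described by counts and medians with no test. Genes were named by rule: the 4 highest and 4 lowest subunit genes per comparison on the rescaled scale, landmark proteins, paralogues and their parents, the highest and lowest levels, the ends of the related lists, and genes outside the name rule. Some genes this rule names are not reported here. Rps10, Rps15, Rpl34 and Rps23 were named after their values were seen. The sample titles give replicate numbers and state no pairing. Deviations of control and BMSC-treated libraries of the same number from their group means correlated at 0.63, 0.19 and 0.50. Control 1 and BMSC-treated 1 share a high mitochondrial content, so these correlations do not show a pairing. For COPD against control these were -0.02, 0.18 and -0.17, and for BMSC-treated against COPD 0.05, -0.06 and -0.10. Sequences were matched by symbol in RefSeq tables (GRCm38.p6).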

Additional observations from a re-analysis of the deposited data

How the results depend on the processing

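Each comparison was recomputed under 31 alternatives. The count of ribosomal protein genes passing limma's test was 0 in each, apart from 1 in BMSC-treated against COPD under the replicate block with the share of subunit FPKM, which was Rpl29 with an adjusted p of 0.0497, where 14.1% of tested genes passed. With the replicate block on deposited FPKM the count was 0 in each comparison, with lowest adjusted p of 0.150, 0.103 and 0.9998. The block changed no other call. With the block after rescaling, the genes at an unadjusted p under 0.05 went from 5 to 22 in the COPD model against control and from 16 to 56 in BMSC-treated against COPD, where the numbers are shared without pairing. The block raised the share of all tested genes at that level from 4.48% to 9.80% and from 7.80% to 14.0%. The median log2 change depended on scale. For the COPD model against control it was 0.43 as deposited, -0.33 rescaled with or without the block and -0.28 with equal library medians. For BMSC-treated against COPD it was -0.44 as deposited, 0.51 rescaled with or without the block, 0.35 with equal library medians and 0.32 rescaled without control 1 and BMSC-treated 1. Rescaling with 1 library left out, the share of subunit FPKM without those libraries and that share with the block were chosen after seeing the data. Leaving out 1 library in turn gave medians of 0.24 to 0.60 as deposited and -0.50 to -0.08 rescaled in the first comparison. In the second, of BMSC-treated against COPD, these were -0.80 to -0.02 and 0.32 to 0.68, and for BMSC-treated against control -0.36 to 0.42 and -0.00 to 0.43. As deposited, the lowest and highest medians of the last 2 comparisons came without BMSC-treated 3 and without BMSC-treated 1. The count at an unadjusted p under 0.05 after rescaling ranged from 0 to 10 and from 4 to 30 in the first 2 comparisons, against 2.15% to 13.4% and 3.04% to 13.0% of tested genes. The ends came from the same libraries for the members as for all genes, without COPD 2 and control 3 in the first and without COPD 2 and control 1 in the second. With 3 libraries per group and no read depth, differences smaller than the spread between libraries were not detectable.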
